A study of Homo sapiens with 36 samples.

Results

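T-box genes encode transcription factors that share a DNA-binding domain, the T-box, and direct the formation of mesoderm, heart, limbs and lymphocytes. The genes described here are TBX1, TBX15, TBX18 and TBX20 of the Tbx1 subfamily, TBX2, TBX3, TBX4 and TBX5 of the Tbx2 subfamily, and TBX21 and EOMES of the Tbr1 subfamily. The rule is a list of gene names, which holds 10 of the 17 human T-box genes and 10 of the 20163 protein-coding genes of the annotation. A region was assigned to a gene if it overlapped the interval from 2.5 kb upstream of the gene's start to its end by at least 1 bp. All positions are on hg19 unless another build is named.

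Polycomb repressive complex 2 places the repressive mark H3K27me3 on chromatin, with EZH2 as its catalytic subunit and SUZ12 as a core subunit. PHF19 and MTF2 are Polycomb-like proteins that associate with this complex and bind DNA rich in CG dinucleotides. Developmental regulators such as the T-box genes are well-known targets of the complex in cells that do not express them.

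The study profiled chromatin of DU145 cells, a human prostate cancer cell line, by ChIP-seq, in which DNA bound to a protein or a modified histone is precipitated with an antibody and sequenced. Control cells, labelled as shRNA control (shCTR), and cells with a hairpin against the long isoform of PHF19 (shPHF19L#4) were compared, with 2 replicates of each ChIP. Both groups were transduced with lentivirus and selected with puromycin. A single hairpin stands for the depletion of PHF19 in these ChIP data.

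The deposited data used here were 14 peak lists and 5 tables of differential binding. The peak lists cover PHF19, EZH2 and SUZ12 in shCTR cells, and H3K27me3 and MTF2 in both groups, with a list for each replicate. No peak list of PHF19, EZH2 or SUZ12 of shPHF19L#4 cells is among the files, and no RNA level was used, so neither the depletion of PHF19 nor the identity of the cell line can be checked from these values. Read totals are not given in the lists, and the sequencing depth behind each of them is unknown.

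The number of peaks differed widely between replicates of the same ChIP. The shCTR lists of PHF19 held 1072 peaks in replicate 1 and 14218 in replicate 2. For MTF2 they held 2516 and 32254 peaks in shCTR cells, and 4216 and 34623 in shPHF19L#4 cells. For H3K27me3 they held 39254 and 15994 peaks in shCTR cells, and 35128 and 57026 in shPHF19L#4 cells, so that the larger number after depletion is found in replicate 2 and not in replicate 1. The EZH2 lists held 2060 and 1236 peaks, and the SUZ12 lists 1523 and 232. Regions called in both replicates, below, are merged overlapping peaks with at least 1 peak from each replicate.

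The tables were made by the authors with DiffBind, a program that counts reads of all replicates in a common set of regions. For each region they give a concentration, the log2 of the mean normalized read number of a group. The differences below are the concentration in shPHF19L#4 cells minus that in shCTR cells, and for PHF19 the ChIP in shCTR cells minus its input. Each concentration is a mean over 2 replicates with no value per replicate, so no error can be attached to it. The tables list only regions under a P threshold of the authors, and almost all of them are higher in shPHF19L#4 cells, which holds for 2407 of 2408 EZH2 regions, 508 of 508 SUZ12 regions, 1048 of 1049 H3K27me3 regions and 2539 of 2546 MTF2 regions. A positive difference at a listed region therefore says little by itself, and the size of the difference is set beside the median of its table.

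In the intervals of the 10 genes, with a peak in either replicate counted, SUZ12 was found at TBX1 alone and EZH2 at TBX1, TBX2 and TBX21. PHF19 was found at these 3 genes and, as a single peak of replicate 2, at TBX4. H3K27me3 and MTF2 reached further genes. Of all protein-coding genes, 6.0% had an EZH2 peak in either replicate. A SUZ12 peak was found at 1.10% of all genes in replicate 1 and 0.972% in replicate 2, and a PHF19 peak at 3.78% and 23.4%. A PHF19 region of the table was found at 2 of the 10 genes, TBX1 and TBX2, where 4.64% of all protein-coding genes had 1. An EZH2 region called in both shCTR replicates was found at 1 gene, TBX1 (2.22% of all genes), and so was a SUZ12 region (0.253%). H3K27me3 was called in both shCTR replicates at 4 genes, TBX1, TBX2, TBX18 and TBX21, against 13.2% of all genes. With 10 genes, a single gene moves such a share by 10 percentage points, and these counts describe the genes named rather than the family as a class.

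After depletion of PHF19, the genes with MTF2 in both replicates were 3 (TBX1, TBX2 and TBX21) in place of 1 (TBX1). The share of all protein-coding genes with such a region was 5.0% in shCTR and 9.81% in shPHF19L#4 cells, so the genome as a whole moved the same way. An H3K27me3 region called in both shPHF19L#4 replicates overlapped 5 genes, TBX1, TBX2, TBX3, TBX15 and TBX18, against 18.7% of all genes. TBX15 and TBX3 are in this list and not in that of shCTR cells, while TBX21 is in that of shCTR cells alone, and at TBX3 only the replicate 2 part of the merged region reached the outermost bases of the interval (0.292% of it), with no replicate 1 peak inside.

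The tables listed a higher EZH2 level in shPHF19L#4 cells at 3 of the 10 genes, TBX1, TBX2 and TBX21 (9.54% of all genes), and a higher MTF2 level at the same 3 genes (9.01%). A higher SUZ12 level was listed at TBX1 alone (2.44%), and a listed H3K27me3 region at 0 of the 10 (3.53%). The absence of a listed H3K27me3 region means that no region in these intervals passed the authors' threshold, not that the mark was equal in both groups.

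**Figure D1:**
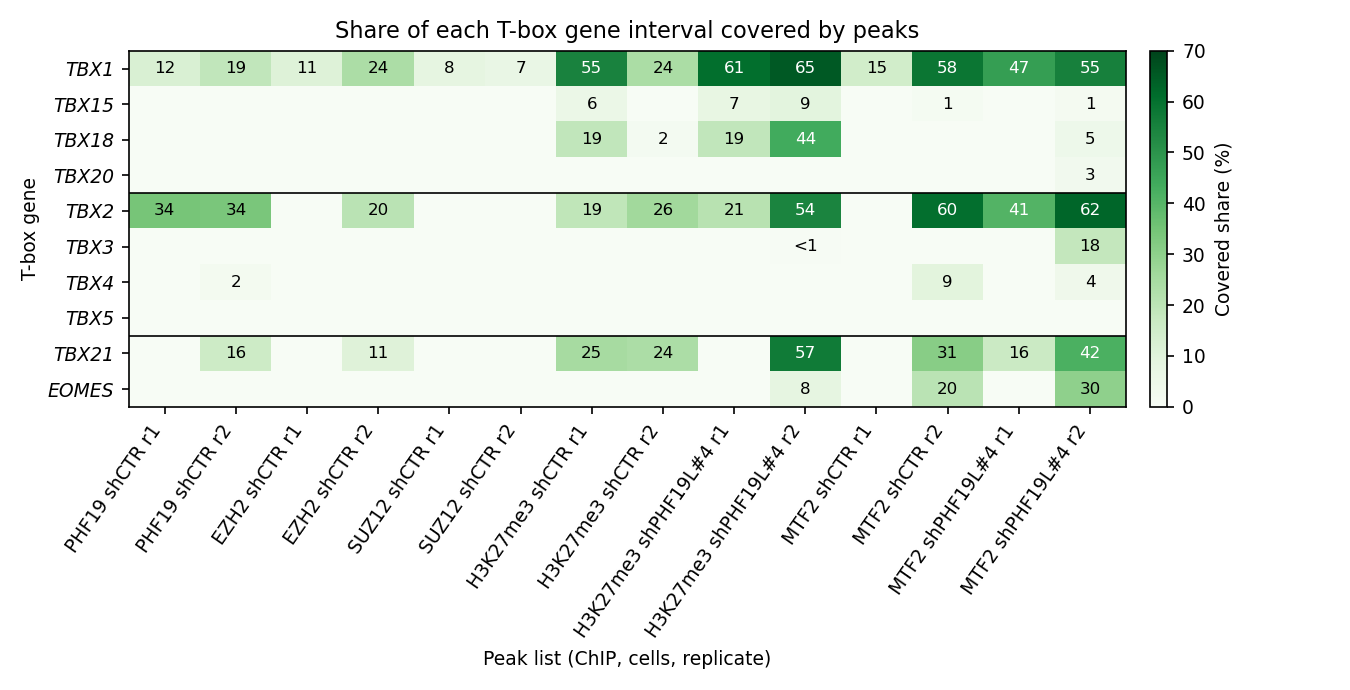
Share of each gene's interval covered by peaks (percent, colour and number) for the 10 T-box genes (vertical axis) in each of the 14 peak lists (horizontal axis, by ChIP, group and replicate). TBX1 has a peak in 14 of 14 lists, TBX2 in 10 and TBX21 in 8, whereas TBX5 has a peak in 0.

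The plot of covered shares shows the order of the genes by the number of lists with a peak. TBX1 was occupied in 14 of 14 lists, TBX2 in 10, TBX21 in 8, TBX15 and TBX18 in 5 each, TBX4 and EOMES in 3 each, TBX3 in 2, TBX20 in 1 and TBX5 in 0. The intervals run from 9.26 kb (EOMES) to 109 kb (TBX15), with a median of 32.3 kb beside 29.7 kb over all genes. The intervals of TBX1, TBX2 and TBX21 are 29.4, 12.1 and 15.4 kb long.

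TBX1 patterns the pharyngeal arches and the cardiac outflow tract, and 1 copy of it is lost in most people with DiGeorge syndrome. Its listed PHF19 region lay inside the gene rather than at its start. The region chr22:19752305-19755929 lies 8.08 to 11.7 kb downstream of the annotated start on the + strand. Of its length, 44% is exonic and 56% intronic, and it contains 1 of the 6 annotated transcript starts of the gene. PHF19 had a concentration of 7.56 there against 6.15 in input, a log2 difference of 1.41, beside a median of 1.58 over the 1245 regions of the table. TBX1 is thus a PHF19 site of ordinary enrichment over input.

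The same stretch of TBX1 stood high in the tables of EZH2, SUZ12 and MTF2, ranking 67 of 2408, 46 of 508 and 45 of 2546 by concentration in shCTR cells. Concentrations grow with the width of a region, so they were also expressed per kb, as the concentration minus the log2 of the width in kb. By this measure the EZH2 region chr22:19752046-19756151 ranked 5 of 2408 in shCTR cells, at 6.46 per kb where the table's median was 4.52. The SUZ12 region chr22:19752216-19755829 ranked 15 of 508, at 5.36 where the median was 4.57, and the MTF2 region chr22:19750684-19756702 ranked 28 of 2546, at 7.68 where the median was 5.94. The PHF19 region itself ranked 260 of 1245, at 5.70 where the median was 5.24. The PHF19 region lies wholly inside the EZH2 and MTF2 regions, of which it makes up 88.3% and 60.2%, and the overlap with the SUZ12 region covers 97.2% of the PHF19 and 97.5% of the SUZ12 region.

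The stretch was called in both replicates of every ChIP. EZH2 peaks there had MACS scores of 791.93 and 1452.62 in replicates 1 and 2. The MACS score measures how far a peak stands above its control, with a minimum of 50 in these lists, and its scale differs between lists, as medians of 74.73 and 139.64 in the EZH2 lists show. SUZ12 peaks had scores of 119.83 and 181.21 (list medians 66.77 and 94.30). PHF19 peaks had a value of 132 in replicate 1, which the list names as tags and which cannot be compared with a MACS score, and a score of 882.88 in replicate 2. Replicate 2 had 3 further PHF19 peaks at the start and in the first part of TBX1, with scores of 67.23, 104.74 and 65.04 beside a list median of 62.33. SUZ12 was found nowhere else in the intervals of the 10 genes.

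EZH2 was listed as higher in shPHF19L#4 cells at 3 regions of TBX1. At the start of the gene (chr22:19742314-19745492) the level was 6.09 in shCTR and 7.41 in shPHF19L#4 cells, a log2 difference of 1.32. In the first part of the gene (chr22:19746151-19749873), which holds 4 of the 6 transcript starts, it was 6.73 and 8.05, again a difference of 1.32. At the densely occupied stretch it was 8.50 and 9.59, a difference of 1.09. The 2 regions with the lower levels thus had the larger log2 differences, and the table's median was 1.16.

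MTF2 showed the same order at TBX1. Over the start and the first part of the gene (chr22:19742695-19750533) the level was 8.77 in shCTR and 9.88 in shPHF19L#4 cells, a log2 difference of 1.11. At the densely occupied stretch it was 10.27 and 11.03, a difference of 0.76, beside a median of 0.87 over the table. SUZ12 had a single listed region, with levels of 7.21 and 8.09 and a difference of 0.88, beside a median of 0.96.

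The share of the TBX1 interval covered by peaks moved differently for MTF2 and H3K27me3. MTF2 peaks covered 14.6% and 58.3% of the interval in shCTR replicates 1 and 2, and 47.2% and 55.3% in shPHF19L#4 replicates 1 and 2. The replicate 1 list of shCTR cells held only the peak at the densely occupied stretch, and that of shPHF19L#4 cells held a further peak from -1.53 to 6.31 kb of the start, where negative distances are upstream. H3K27me3 peaks covered 54.9% and 23.9% in shCTR cells and 60.6% and 65.2% in shPHF19L#4 cells. In shCTR cells the regions called in both replicates were 3 separate ones. In shPHF19L#4 cells, joining the overlapping peaks of the replicates gave a single region of 19247 bp, from -3.11 to 16.1 kb of the start. Neither replicate had a peak of that length. The interval held 2 peaks in replicate 1, the widest of 9732 bp, and 4 in replicate 2, the widest of 8615 bp. The covered share of H3K27me3 was thus higher in shPHF19L#4 cells in both replicates, by more in replicate 2, while that of MTF2 was higher in replicate 1 and slightly lower in replicate 2.

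**Figure D2:**
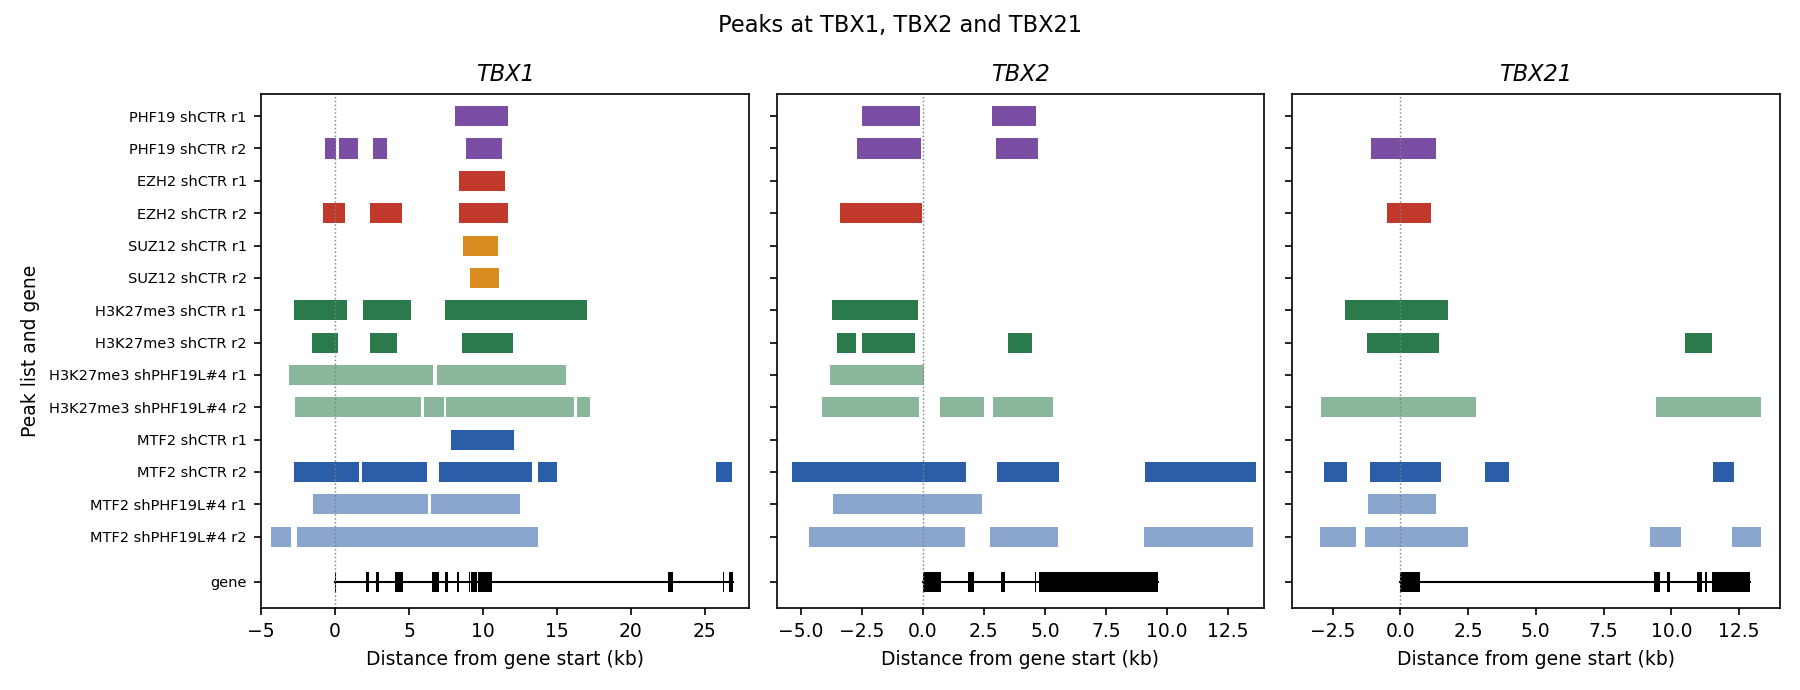
Peaks at TBX1, TBX2 and TBX21 by list (vertical axis) against the distance from the gene start (horizontal axis, kb), with shCTR lists in full and shPHF19L#4 lists in lighter colour and exons in black. At TBX1 the peaks of all 14 lists meet between 8.08 and 11.7 kb inside the gene, whereas at TBX2 and TBX21 they gather around the start.

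TBX15 and TBX18, a pair of closely related genes with roles in the skeleton, heart and urinary tract, held H3K27me3 with no PHF19, EZH2 or SUZ12 peak in their intervals. At TBX15 the mark lay deep inside the gene, mainly between 56 and 65.2 kb from the start. It covered 5.57% and 0% of the interval in shCTR replicates 1 and 2, and 7.35% and 9.24% in shPHF19L#4 replicates 1 and 2. An MTF2 peak at the same place was found in the replicate 2 lists alone, with scores of 147.60 in shCTR and 275.91 in shPHF19L#4 cells.

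At TBX18 the mark was spread over many peaks along the gene. It covered 18.8% and 1.9% of the interval in shCTR cells, and 18.8% and 43.5% in shPHF19L#4 cells, so the share was equal in replicate 1 and far apart in replicate 2. The number of peaks went with it, at 10 and 2 in shCTR and 11 and 18 in shPHF19L#4 cells. MTF2 was called at the start of TBX18 in shPHF19L#4 replicate 2 alone, with a score of 455.83.

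Regions listed for EZH2 and MTF2 lay upstream of TBX18, outside the interval that defines it. EZH2 at chr6:85483042-85485219, at -10.9 to -8.73 kb of the start, had a level of 5.41 in shCTR and 6.62 in shPHF19L#4 cells, a log2 difference of 1.21. MTF2 at chr6:85483234-85485127 had levels of 6.64 and 7.66, a difference of 1.02. No annotated gene overlaps either region, and the stretch from -12 to -7.5 kb held a peak in 8 of 14 lists, which did not include any EZH2 or SUZ12 list. These flanking regions were singled out after their values were seen.

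TBX20, a regulator of heart development, was nearly bare. Its interval held a single peak, of MTF2 in shPHF19L#4 replicate 2, at the start of the gene with a score of 157.41. Within 50 kb to either side of its start, H3K27me3 covered 1.08 kb in shPHF19L#4 replicate 1 and 0 kb in the other 3 lists. Over all genes the median was 0 kb in each of the 4 lists.

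Of the Tbx2 subfamily, whose founder TBX2 is a repressor with roles in heart and limb development, TBX2 was occupied by PHF19 on both sides of its start. The upstream region chr17:59474510-59477107 ends 97 bp before the start, and the other, chr17:59480025-59481907, lies 2.82 to 4.7 kb inside the gene. PHF19 had a concentration of 7.39 against 5.65 in input at the upstream region, a log2 difference of 1.74. At the region inside the gene it was 6.18 against 4.57, a difference of 1.61. Both differences are near the median of the table, 1.58, and per kb the upstream region ranked 137 of 1245 and the other 589. TBX2-AS1, an antisense RNA gene, overlaps both regions, and the ChIP signal has no strand.

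A single EZH2 region and a single MTF2 region were listed over the start of TBX2. EZH2 at chr17:59473444-59479008 had a level of 7.32 in shCTR and 8.55 in shPHF19L#4 cells, a log2 difference of 1.23. MTF2 at chr17:59473537-59479630 had levels of 8.86 and 9.82, a difference of 0.96. The upstream PHF19 region lies wholly inside both, and makes up 46.7% of the EZH2 and 42.6% of the MTF2 region. In the peak lists, EZH2 was called in shCTR replicate 2 with a score of 209.02 and not in replicate 1, and SUZ12 was called in neither replicate.

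H3K27me3 at TBX2 was found upstream of the start in all 4 lists, and inside the gene as well in the replicate 2 lists. It covered 18.9% and 25.8% of the interval in shCTR replicates 1 and 2, and 21% and 54.4% in shPHF19L#4 replicates 1 and 2. MTF2 covered 0% and 60.4% in shCTR cells, and 40.6% and 62.5% in shPHF19L#4 cells. For MTF2 the difference is thus that replicate 1, with its short lists, had no peak in shCTR cells and a peak of 6094 bp in shPHF19L#4 cells.

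TBX3, TBX4 and TBX5, which act in limb, heart and mammary gland development, had no listed region of any of the 5 tables in their intervals. TBX4 lies 42.9 kb from TBX2 on chromosome 17, and its interval held peaks in 3 lists. These were PHF19 of replicate 2, with a score of 74.40 beside a list median of 62.33, and MTF2 of replicate 2 in both groups. The MTF2 scores were at most 85.39 in shCTR and 61.79 in shPHF19L#4 cells, beside list medians of 72.05 and 86.44. TBX3 and TBX5 are 262 kb apart on chromosome 12. TBX5 had no peak in any of the 14 lists, and 0 kb of H3K27me3 in each list within 50 kb of its start.

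Around TBX3, in contrast, H3K27me3 was present outside the gene. Within 50 kb to either side of the start it covered 20 and 0 kb in shCTR replicates 1 and 2, and 13.8 and 24 kb in shPHF19L#4 replicates 1 and 2. A region listed as higher in shPHF19L#4 cells, chr12:115103160-115106335, begins 1724 bp past the end of the gene, with levels of 6.56 and 7.63 and a log2 difference of 1.07, beside a median of 1.13. MTF2 was called at the start of TBX3 in shPHF19L#4 replicate 2, with a score of 407.64, and in none of the other 3 MTF2 lists.

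Of the Tbr1 subfamily, TBX21 encodes T-bet, which directs the differentiation of T helper 1 cells. Its listed regions lay over the start. EZH2 at chr17:45808613-45812198 had a level of 6.35 in shCTR and 7.74 in shPHF19L#4 cells, a log2 difference of 1.39, beside a median of 1.16. MTF2 at chr17:45809421-45811925 had levels of 7.66 and 8.69, a difference of 1.03, beside a median of 0.87. Per kb, the shCTR level of EZH2 at the strongest region of each gene was 6.46 at TBX1, 4.84 at TBX2 and 4.51 at TBX21, and that of MTF2 was 7.68, 6.25 and 6.34. At these strongest regions TBX21 had the largest difference of the 3 genes for both proteins and TBX1 the smallest, but at the regions nearest to the start TBX1 had 1.32 for EZH2 and 1.11 for MTF2, the latter above TBX21.

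PHF19 was not listed at TBX21 and was called in replicate 2 alone, with a score of 121.23 beside a list median of 62.33. EZH2 too was called in replicate 2 alone, with a score of 88.46. MTF2 peaks covered 0% and 31% of the interval in shCTR cells, and 16.3% and 41.9% in shPHF19L#4 cells, and the highest score in replicate 2 was 693.69 in shCTR and 3079.00 in shPHF19L#4 cells. The MTF2 lists differ in length and score between the groups as well, with 2516 and 4216 peaks in replicate 1 and median scores of 72.05 and 86.44 in replicate 2, and the part of this in the values at TBX21 was not tested.

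H3K27me3 at TBX21 went opposite ways in the replicates. In replicate 1 it covered 24.8% of the interval in shCTR cells, with a score of 121.81, and 0% in shPHF19L#4 cells. In replicate 2 it covered 23.7% in shCTR and 57% in shPHF19L#4 cells, with highest scores of 181.17 and 2031.50. No direction can therefore be given for the mark at this gene from the peak lists.

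**Figure D3:**
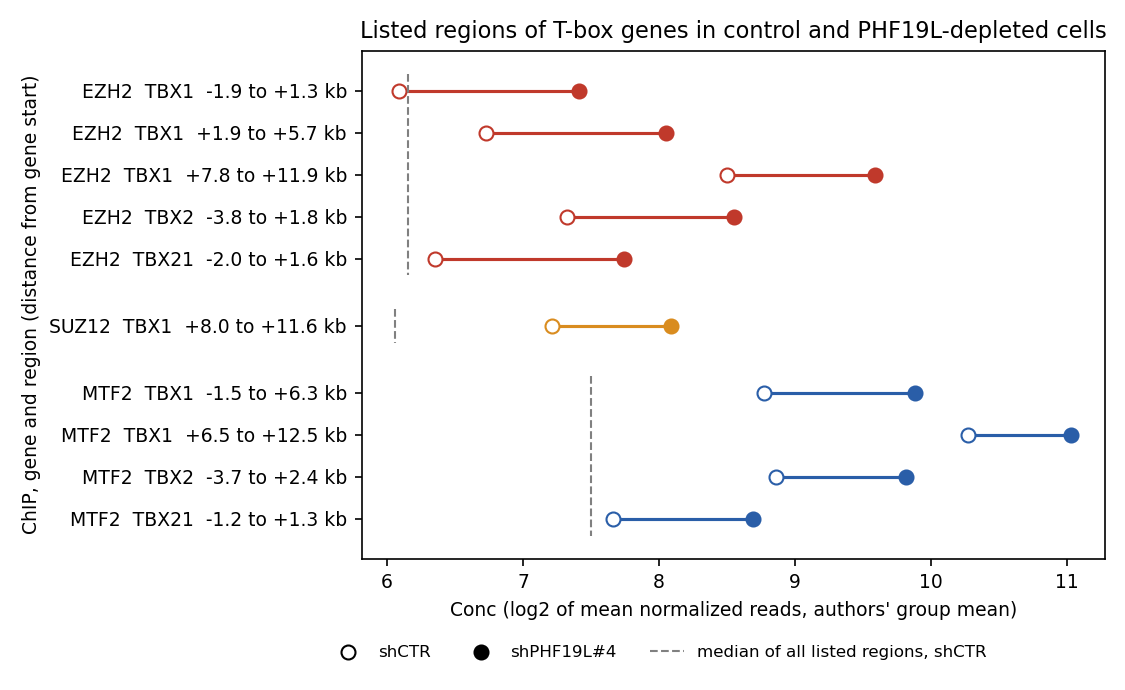
Concentration (log2 of mean normalized reads) of each listed region at TBX1, TBX2 and TBX21 in shCTR cells (open circles) and shPHF19L#4 cells (filled circles), with dashed lines at the median shCTR concentration of each table. All regions shown are higher in shPHF19L#4 cells, by 0.76 to 1.39, and the tables hold almost only such regions.

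Taking for each gene the region with the highest mean level, the median log2 difference of EZH2 over the 3 genes was 1.23, from 1.09 (TBX1) to 1.39 (TBX21), beside 1.16 over all 2408 regions. For MTF2 it was 0.96, from 0.76 (TBX1) to 1.03 (TBX21), beside 0.87 over 2546 regions. At these regions the differences of the 3 genes thus lay near the medians of their tables. The plot of concentrations shows the levels in both groups, beside the median shCTR level of each table.

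EOMES, which acts in mesoderm formation and in cytotoxic lymphocytes, had peaks in 3 of 14 lists in its interval, all of replicate 2. MTF2 was called at its start in replicate 2 of both groups, with scores of 186.69 in shCTR and 461.81 in shPHF19L#4 cells, beside list medians of 72.05 and 86.44, and H3K27me3 in shPHF19L#4 replicate 2 with a score of 66.82. Just past the end of the gene, outside the interval, lay the PHF19 region with the largest difference over input within 50 kb of any of the 10 gene starts.

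This region, chr3:27753633-27757141, lies 298 bp past the gene end and overlaps the long noncoding RNA gene LINC02084. PHF19 had a concentration of 8.47 there against 5.28 in input, a log2 difference of 3.19 that ranked 32 of 1245, and per kb its level ranked 44. EZH2 at chr3:27753627-27757248 had a level of 7.04 in shCTR and 7.69 in shPHF19L#4 cells, a difference of 0.65. MTF2 at chr3:27753398-27757412 had levels of 8.83 and 9.53, a difference of 0.70. Both differences were below the medians of their tables, 1.16 and 0.87, at a site whose PHF19 enrichment was more than that of TBX1 or TBX2.

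Peaks stood there in 13 of 14 lists, all but SUZ12 of replicate 2. H3K27me3 had scores of 619.40 and 357.19 in shCTR cells, and 522.39 and 2050.64 in shPHF19L#4 cells. With the intervals of all genes extended to 2.5 kb past the gene end, a choice made after the peaks were seen, PHF19 was found at 3 of the 10 genes (TBX1, TBX2 and EOMES) against 4.91% of all genes. EZH2 in both shCTR replicates was then found at TBX1 and EOMES (2 of 10, against 2.33% of all genes), and so was MTF2 (2 of 10, against 5.25%). The 300 bases at the centre of the PHF19 region, chr3:27755238-27755537 of hg19 on the + strand, hold 10 CG dinucleotides, in capitals, and are printed because PHF19, EZH2, H3K27me3 and MTF2 were called there in both replicates.
EOMES_PHF19_region_centre: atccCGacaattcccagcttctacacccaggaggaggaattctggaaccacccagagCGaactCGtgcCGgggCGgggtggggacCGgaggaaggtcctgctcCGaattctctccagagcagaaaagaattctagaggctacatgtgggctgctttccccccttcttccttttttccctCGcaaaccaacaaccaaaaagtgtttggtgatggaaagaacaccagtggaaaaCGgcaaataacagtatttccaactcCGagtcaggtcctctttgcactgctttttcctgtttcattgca

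**Figure D4:**
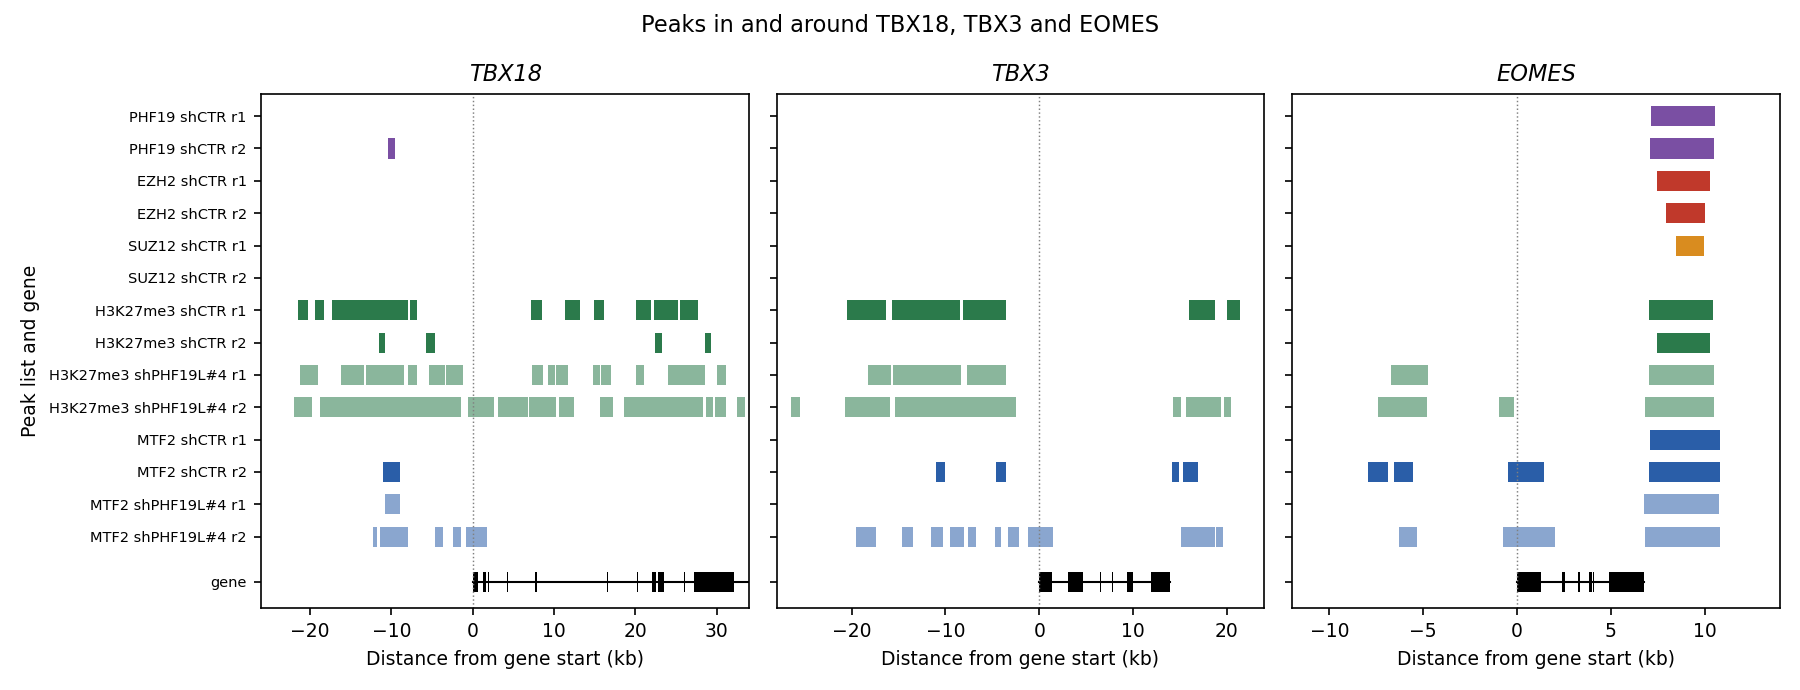
Peaks around TBX18, TBX3 and EOMES by list (vertical axis) against the distance from the gene start (horizontal axis, kb), with shCTR lists in full and shPHF19L#4 lists in lighter colour and exons in black. At EOMES the peaks of 13 of 14 lists stand together between 6.5 and 11 kb from the start, past the end of the gene, and at TBX18 those of 8 of 14 lists stand upstream, between -12 and -7.5 kb.

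The single lists show how far the counts depend on the replicate. PHF19 peaks of shCTR cells were found at 2 of the 10 genes in replicate 1 (3.78% of all genes) and at 4 in replicate 2 (23.4%). EZH2 peaks were found at 1 gene in replicate 1 (3.27%) and at 3 in replicate 2 (5.04%), and SUZ12 peaks at 1 in replicate 1 (1.10%) and 1 in replicate 2 (0.972%). The genes added by replicate 2 were TBX4 and TBX21 for PHF19, and TBX2 and TBX21 for EZH2.

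MTF2 peaks were found at 1 gene in shCTR replicate 1 (5.86% of all genes) and at 3 in shPHF19L#4 replicate 1 (10.5%). In replicate 2 they were found at 6 genes in shCTR cells (49.5%) and at 9 in shPHF19L#4 cells (51.0%). In the long lists of replicate 2, where about every other gene of the genome has an MTF2 peak, the presence of a peak says little about a gene. The 3 genes gained in replicate 2 were TBX3, TBX18 and TBX20, each with the peak at its start.

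H3K27me3 peaks were found at 5 genes in shCTR replicate 1 (19.6% of all genes) and at 4 in replicate 2 (14.8%). In shPHF19L#4 cells they were found at 4 genes in replicate 1 (19.2%) and at 7 in replicate 2 (29.0%). The mean covered share of the 10 intervals was 12.3% and 7.53% in shCTR replicates 1 and 2, and 10.8% and 23.8% in shPHF19L#4 replicates 1 and 2. Over all genes the means were 5.07% and 2.29%, and 4.84% and 7.77%. Both for the T-box genes and for all genes, the mean was lower after depletion in replicate 1 and higher in replicate 2.

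Most of the 10 starts had more CG dinucleotides than the typical gene, a feature that was not used to choose them. Within 1 kb to either side of the start, the median was 7.07 CG per 100 bp over the 10 genes and 4.5 over all genes, and 9 of the 10 lay above the latter. TBX2 had the highest density, 11.2, above 98.7% of all genes, and TBX15 the lowest, 4.2. Of the other 7 T-box genes, 4 lay below the median of all genes (TBX10, TBX19, TBX22 and TBR1), so a dense start is not common to the family. Density at the start did not order the genes by the number of lists with a peak anywhere in the interval. TBX2, with the highest density, had a peak in 10 of 14 lists. TBX20, with 7.2, had a peak in 1 of 14 lists, and TBX1, with 6.05, in 14. The stretch of TBX1 with peaks in all lists lies 8.08 to 11.7 kb from its start, outside the window of this density.

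**Figure D5:**
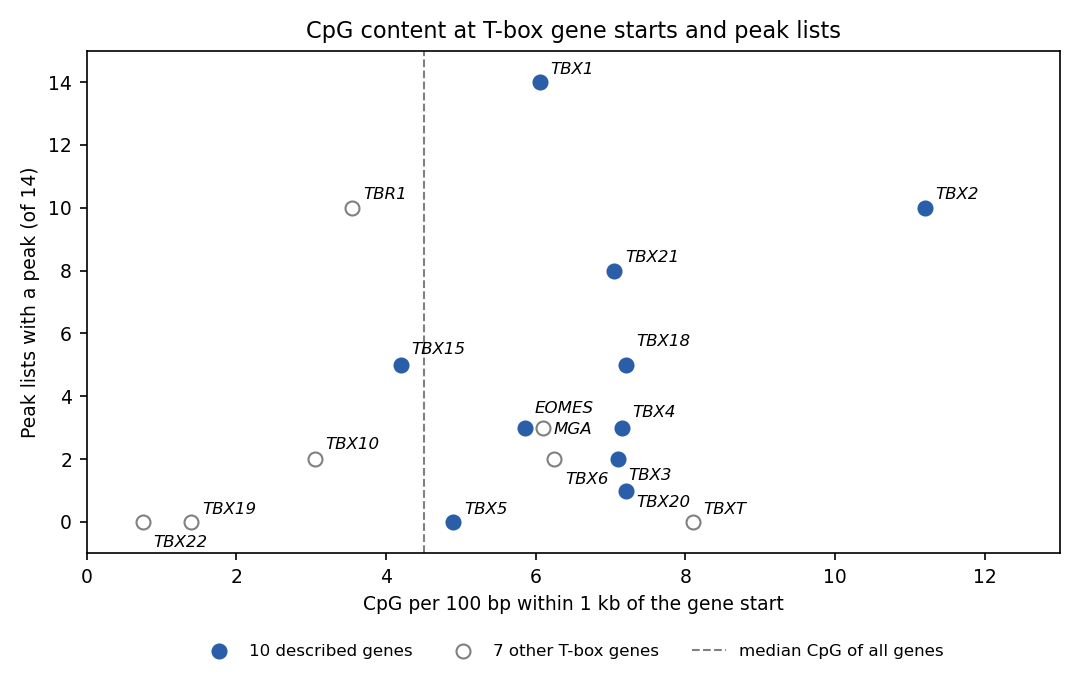
Density of CG dinucleotides within 1 kb of the gene start (horizontal axis, CG per 100 bp) and number of the 14 peak lists with a peak in the interval (vertical axis), 1 point per gene. Filled points are the 10 T-box genes described here and open points the other 7 T-box genes. TBX2 stands at 11.2 with 10 lists, while TBX1 (6.05) has peaks in 14 lists and TBX20 (7.2) in 1.

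At the listed PHF19 regions the density was 7.83 CG per 100 bp at TBX1, 8.66 and 6.05 at TBX2, and 4.73 at the region past the end of EOMES, beside a median of 5.14 over the table. The regions of TBX1 and TBX2 thus lay above the median and that of EOMES, with the largest enrichment of PHF19, lay below it. The plot of CG density by gene covers the starts alone, and these values cover the regions themselves.

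Promoter sequences from RefSeq (GRCh38.p14) were available for 7 of the 10 genes, and not for TBX15, TBX2 and TBX3. Those of TBX1 and TBX21, which had peaks at their starts in these cells, are printed beside those of TBX20 and TBX5, which had a single MTF2 peak and no peak. Each is the 250 bases before the start, read on the strand of the gene, at chr22:19756453-19756702 (TBX1, + strand), chr17:47732986-47733235 (TBX21, + strand), chr7:35254101-35254350 (TBX20, - strand) and chr12:114408443-114408692 (TBX5, - strand). CG dinucleotides are in capitals.
TBX1: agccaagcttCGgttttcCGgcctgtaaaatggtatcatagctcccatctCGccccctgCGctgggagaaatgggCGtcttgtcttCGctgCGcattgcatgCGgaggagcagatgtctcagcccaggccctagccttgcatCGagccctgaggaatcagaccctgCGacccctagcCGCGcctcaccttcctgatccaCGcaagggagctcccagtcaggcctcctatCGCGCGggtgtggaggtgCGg
TBX21: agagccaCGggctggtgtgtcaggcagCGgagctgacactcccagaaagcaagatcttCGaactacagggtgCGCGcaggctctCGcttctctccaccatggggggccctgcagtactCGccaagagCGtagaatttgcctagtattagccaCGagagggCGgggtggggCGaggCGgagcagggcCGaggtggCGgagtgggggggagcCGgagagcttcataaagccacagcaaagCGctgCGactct
TBX20: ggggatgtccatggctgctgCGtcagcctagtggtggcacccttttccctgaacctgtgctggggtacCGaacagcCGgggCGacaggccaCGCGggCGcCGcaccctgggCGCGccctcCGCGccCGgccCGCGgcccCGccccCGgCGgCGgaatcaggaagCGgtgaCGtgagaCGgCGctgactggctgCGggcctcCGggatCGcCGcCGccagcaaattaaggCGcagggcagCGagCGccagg
TBX5: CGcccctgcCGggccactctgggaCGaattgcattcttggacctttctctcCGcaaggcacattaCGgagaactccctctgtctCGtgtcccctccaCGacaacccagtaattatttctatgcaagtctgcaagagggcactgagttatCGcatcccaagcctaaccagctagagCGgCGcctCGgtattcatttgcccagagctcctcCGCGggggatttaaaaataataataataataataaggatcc

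The promoters of TBX1 and TBX21 hold 17 CG each, that of TBX20 holds 31 and that of TBX5 holds 13, beside a median of 11 over 35116 promoters of the same length. TBX20, almost free of peaks, thus has the most of the 4. RefSeq gives TBX5 a further promoter, downstream of the annotated start, which holds 20. At least 1 CG is found in 93.9% of all promoters. The T-box core motif AGGTGTGA, searched on both strands, was found in 0 of the 7 promoters and in 0.786% of all promoters, which says only that these letters are not in these windows.

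Of the other 7 T-box genes (TBR1, TBXT, TBX6, TBX10, TBX19, TBX22 and MGA), TBR1, a regulator of cortical neurons, was the only gene with a listed region in any table. PHF19 had 2 regions there, with log2 differences over input of 2.33 and 1.78, both larger than at TBX1 and TBX2. EZH2 had levels of 5.17 in shCTR and 6.09 in shPHF19L#4 cells, a difference of 0.92, and MTF2 had 6.46 and 7.11, a difference of 0.65. Both are below the medians of their tables. TBR1 had a peak in 10 of 14 lists and the other 6 genes in 0 to 3.

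Over all protein-coding genes, 12.6% had a region listed in any of the 5 tables. Of the 16 nearest protein-coding genes outside the 10, 1 had any. GNB1L, which overlaps TBX1, is not among the 16. The gene with listed regions was an unnamed gene model 31.9 kb from TBX1 that overlaps SEPTIN5 and GP1BB. EZH2 there had a log2 difference of 1.77, and H3K27me3 and MTF2 each had 1.12. That was the only listed H3K27me3 region within 50 kb of the start of TBX1.

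Of 10 cardiac and limb partners or targets of T-box factors (NKX2-5, HAND1, HAND2, ISL1, MEF2C, MYOCD, NPPA, FGF10, PITX1 and SALL4), 4 had a listed region, beside 12.6% of all protein-coding genes. HAND1, a regulator of heart development, had PHF19 at 8.58 against 6.49 in input (log2 difference 2.09) and EZH2 at 8.55 in shCTR and 9.46 in shPHF19L#4 cells (0.91). MYOCD, a coactivator of smooth and cardiac muscle genes, had a PHF19 difference of 1.43 and an EZH2 difference of 0.93, and NKX2-5, a cardiac homeobox gene, had 1.48 and 0.91. MEF2C, a muscle transcription factor, had a PHF19 difference of 1.59 and no EZH2 region. These 3 EZH2 differences, from 0.91 to 0.93, were all smaller than those of TBX1, TBX2 and TBX21.

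MTF2 differences at these 4 genes were 0.72 at NKX2-5, 0.66 at HAND1, 0.50 at MEF2C and 0.77 at MYOCD. SUZ12 was listed at HAND1 and MYOCD, with differences of 0.80 and 0.74, beside 0.88 at TBX1. Of 10 partners and targets of TBX21 and EOMES in lymphocytes (IFNG, CXCR3, IL2RB, IL12RB2, PRF1, GZMB, CCL5, RUNX3, PRDM1 and IL18RAP), 1 had a listed region, beside 12.6% of all genes. It was PRDM1, which encodes the repressor Blimp-1, with PHF19 at 6.13 against 3.54 in input, a difference of 2.59.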

How the data were processed

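ChIP-seq data of DU145 cells (antibodies against MTF2, SUZ12, EZH2, PHF19 and H3K27me3) were read from 14 peak lists and 5 DiffBind tables, with 2 replicates per ChIP and condition. Per the paper's methods, the authors mapped reads with Bowtie to hg19, or to hg19 and dm3 where fly spike-in was added, and ran MACS once per replicate. The score of a peak is the MACS score as deposited by the authors, at least 50. The PHF19 list of replicate 1 holds tags instead, and those of MTF2 replicate 1 give coordinates without a score. The concentrations are log2 values made by the authors with DiffBind. The tables list only regions under their P threshold, and no spike-in scaling is named for them. Their fold, P and FDR columns hold the authors' own comparison of the groups and were not used. The 4 tables of shCTR against shPHF19L#4 have 2 header lines that name the second group differently, and the second line, which fits the file's title, was used.

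Starts were turned to counting from 1. Genes were the 20163 protein-coding genes of GENCODE release 44 lifted to GRCh37, without the mitochondrial genes, and overlap meant at least 1 bp. Regions of both replicates were merged overlapping peaks with a peak from each. Python 3.11.15, numpy 2.4.6 and matplotlib 3.10.9 were used, and the overlap functions were tested on simulated intervals. Samples were grouped by ChIP and hairpin as labelled. Named genes were the 10 members, the other 7 T-box genes, the nearest protein-coding gene on each side, and every gene with a listed region among 10 cardiac and limb and 10 lymphocyte partners and targets. Members and lists were chosen with earlier results of these data known, so no test was made and counts stand beside the share of all genes.

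Alternatives were at least 50% of a region inside the interval, 2.5 kb to each side of the start only, peaks of either replicate, each replicate left out, a MACS score of at least 100, PHF19 peaks called by MACS in both replicates, the region nearest to the start, and the mean over all listed regions of a gene weighted by width. The interval extended to 2.5 kb past the gene end was added after the peaks were seen, and the regions described outside the intervals were also chosen after their values were seen. Depth is unknown, since read totals are not in the lists, and counting error could not be computed. RNA-seq and IgG samples were not analysed by themselves. Input levels were read only from the PHF19 table, and the control samples of the authors' peak calling enter through the peak lists.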

Additional observations from a re-analysis of the deposited data

How the results depend on the processing

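Of 75 alternative values for 16 results, 54 stayed within the limits set for them (for a count, within 1.5 times the reported count; for a median difference, within 0.02, the rounding of the tables; for a covered share, within its SD over replicates) and 21 moved further. Counts and shares have no direction, and the tables hold almost only positive differences, so no change of direction could be seen. With 2.5 kb to each side of the start only, PHF19 was found at 1 gene in place of 2 (3.51% of all genes), and EZH2 (1.77%), SUZ12 (0.203%) and MTF2 (3.78%) in both shCTR replicates and listed SUZ12 (1.95%) at 0 in place of 1 each, since the TBX1 regions lie inside the gene. With peaks of either replicate, EZH2 in shCTR cells was found at 3 genes in place of 1 (6.0% of all genes), MTF2 in shCTR cells at 6 in place of 1 (49.8%), and MTF2 in shPHF19L#4 cells at 9 in place of 3 (51.3%). Leaving out each replicate in turn gave 1 to 3 genes with EZH2 in shCTR cells and 1 to 6 with MTF2. In shPHF19L#4 cells it gave 3 to 9 genes with MTF2, and the higher number came each time without replicate 1. H3K27me3 in shCTR cells was found at 4 genes without replicate 1 and 5 without replicate 2. In shPHF19L#4 cells it was found at 7 and 4. For PHF19, leaving out a replicate also replaced the authors' table by a single peak list. This gave 4 genes without replicate 1 and 2 without replicate 2. PHF19 peaks called by MACS in both replicates gave 2 genes, as did the table. With the interval extended to 2.5 kb past the gene end, chosen after the data were seen, EZH2 and MTF2 in both shCTR replicates were each found at 2 genes and a listed H3K27me3 region at 1, TBX3 (3.84% of all genes). The median EZH2 difference, 1.23 as reported, was 1.32 with the region nearest to the start, 1.32 at the start only and 1.16 with the extended interval, and that of MTF2, 0.96 as reported, was 1.03, 1.03 and 0.86. The median H3K27me3 difference has no value, since no gene has a listed region within its interval, and the SUZ12 median has none at the start only. The median share of the intervals covered by H3K27me3, as a mean over replicates, was 1.39% in shCTR cells (SD 1.97, n = 2), 0.935% with a MACS score of at least 100 and 0% at the start only, and in shPHF19L#4 cells 4.34% (SD 6.14, n = 2), 1.99% and 7.1%. The SD exceeds the share in both groups, so that limit could not catch a fall. The number of peaks, which differed between replicates, and the unknown depth limit all counts.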
